A study of Homo sapiens with 12 samples.

Results

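The 10 genes described here build and feed the DNA replication machinery. They were chosen by their Ensembl identifiers and found as 10 of the 19580 rows of the deposited table. They encode the 6 subunits of the MCM helicase (MCM2, MCM3, MCM4, MCM5, MCM6 and MCM7), the sliding clamp PCNA, and 3 proteins of deoxynucleotide supply (RRM1, RRM2 and TYMS). All 10 passed the filter on low values, as did 11510 genes in all. The table holds no gene symbols, so the name of each gene comes from the list of identifiers and was not checked against the files.

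The measurements are ribosome footprints of HAP1 cells, an established human line with a nearly haploid genome that descends from KBM-7 leukaemia cells, labelled wild type throughout. Untreated cells received neither agent. The 4SU group received 5 uM 4-thiouridine (4SU) for 18 h, the UVA group 6 kJ of light per square metre with 30 min of recovery before harvest, and the 4SU+UVA group received both. The 4 groups hold 3 biological replicates each, 12 libraries in all. 4SU is a uridine analogue built into newly made RNA, and UVA makes it form covalent bonds with nearby protein, so the combined treatment is the one that crosslinks RNA to protein.

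MCM2 to MCM7 form a ring of 6 different proteins that is loaded onto replication origins before S phase and then unwinds DNA at the fork. PCNA encircles DNA behind the fork and tethers polymerases and repair enzymes to it. Ribonucleotide reductase, made of the large subunit RRM1 and the small subunit RRM2, turns ribonucleotides into deoxynucleotides, and thymidylate synthase, encoded by TYMS, makes the thymine nucleotide. Transcription of many of these genes rises toward S phase under E2F factors, which bind TTTCCCGC-like sequences near the start of the gene.

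Windows of RefSeq (GRCh38.p14) from 250 bases before to 50 bases after a start site were at hand for 8 of the 10 genes. The entries for MCM4 and MCM5 were not among them. TTTCCCGC, TTTGGCGC, TTTCGCGC and TTTGCCGC were searched on both strands. At least 1 match lay in a window of 6 of these 8 genes (MCM2, MCM3, MCM6, MCM7, PCNA and TYMS), in 6 of their 12 windows, against 3.31% of 35116 windows of all genes. RRM1 and RRM2 had none, which says only that these letters are not in those windows. The matches are shown as background on these genes, and their part in the changes below was not tested. Capitals mark the match, overlapping matches are joined, and each stretch is read 5′ to 3′ along the strand of the gene, with 8 bases on either side.
MCM2 (chr3:127598405-127598432, plus strand): gaaccactTTTCGCGCGAAAcctggttg
MCM3 (chr6:52284901-52284924, minus strand): atggtacgTTTCCCGCcaccgcgg
MCM3 (chr6:52284731-52284754, minus strand): tcggaagtTTTCGCGCcggggtgg
MCM6 (chr2:135876576-135876603, minus strand): gctttgcaTTTGGCGCGAAAtccctttc
MCM6 (chr2:135876514-135876541, minus strand): tggtcaggTTTGGCGCGAAAtctccagc
MCM7 (chr7:100101569-100101592, minus strand): ctcggaccGCGGGAAAcccggcgc
MCM7 (chr7:100101391-100101414, minus strand): gggcgacgTTTCGCGCcaatttcg
PCNA (chr20:5126666-5126689, minus strand): cgtcagggGCGGGAAAaggcgtgc
TYMS (chr18:657606-657629, plus strand): ggacggccGCGGGAAAaggcgcgc

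The 250 bases before the start of MCM6, which had the largest fall of the helicase genes with 4SU+UVA, and before a start of PCNA, which did not fall, are given whole for comparison. The PCNA window shown is the one with a match, and its other window (chr20:5119959-5120208 before the start) had none. Capitals again mark the E2F-type letters. The G and C content was 62.8% for MCM6 and 68.4% for PCNA.
MCM6 (chr2:135876444-135876693, minus strand): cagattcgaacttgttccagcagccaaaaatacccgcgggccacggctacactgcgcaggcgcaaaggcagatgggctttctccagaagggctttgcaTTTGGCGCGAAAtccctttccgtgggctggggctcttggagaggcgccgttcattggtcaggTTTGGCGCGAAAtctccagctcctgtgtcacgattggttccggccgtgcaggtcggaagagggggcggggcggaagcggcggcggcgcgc
PCNA (chr20:5126623-5126872, minus strand): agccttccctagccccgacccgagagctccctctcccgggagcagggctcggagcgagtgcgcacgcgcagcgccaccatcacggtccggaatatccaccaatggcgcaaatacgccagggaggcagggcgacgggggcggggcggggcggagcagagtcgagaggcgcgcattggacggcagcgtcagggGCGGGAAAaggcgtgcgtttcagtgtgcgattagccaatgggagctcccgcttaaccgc

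Levels are given in RPKM, reads scaled to transcript length and library size, as deposited. Library totals, recovered from the steps of these values, ran from 1899854 reads (4SU+UVA replicate 2) to 5832366 (untreated replicate 3). Log2 values of 2 replicates of a group correlated across genes at r of 0.982 to 0.991. Each value of the 10 genes rests on 413 to 6190 reads, so counting error alone is 4.92% at the lowest count and 1.27% at the highest. Only footprints were measured, so a value follows both the amount of an mRNA and the ribosomes on it, and in a bulk lysate fewer cells making a protein and fewer footprints per cell cannot be told apart. RPKM is relative to the library total: the median gene lay 0.23 higher on the log2 scale with 4SU+UVA than in untreated cells, 0.09 higher with 4SU and 0.05 higher with UVA. The 10 genes together took 0.681 ± 0.00495% of reads in untreated cells, 0.590 ± 0.0488% with 4SU, 0.698 ± 0.00753% with UVA and 0.428 ± 0.0176% in cells given both (SD, n = 3 each). Their share was thus lowest, and apart from every other library, in the 3 libraries that received both agents.

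In untreated cells PCNA was the most densely covered gene at 579 ± 14.7 RPKM, followed by MCM7 at 342 ± 6.86, TYMS at 322 ± 9.20, MCM2 at 265 ± 1.90, MCM4 at 256 ± 3.68, RRM1 at 205 ± 4.28 and RRM2 at 189 ± 3.03 RPKM (SD, n = 3 each). MCM3 at 167 ± 5.11, MCM6 at 164 ± 3.61 and MCM5 at 145 ± 6.29 RPKM had the lowest levels. Libraries of neighbours in this order overlapped only for MCM3 and MCM6. These levels are per length of the transcript in the deposited table, untranslated regions included, so a long untranslated region lowers the level of a gene. With 4SU+UVA the order was PCNA, TYMS, MCM7, RRM2, MCM2, MCM4, MCM3, MCM5, RRM1 and MCM6. There TYMS stood above MCM7 and RRM2 above MCM2, MCM4 and RRM1, each the other way round in untreated cells, and neighbours overlapped from MCM2 down to MCM5.

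**Figure D1:**
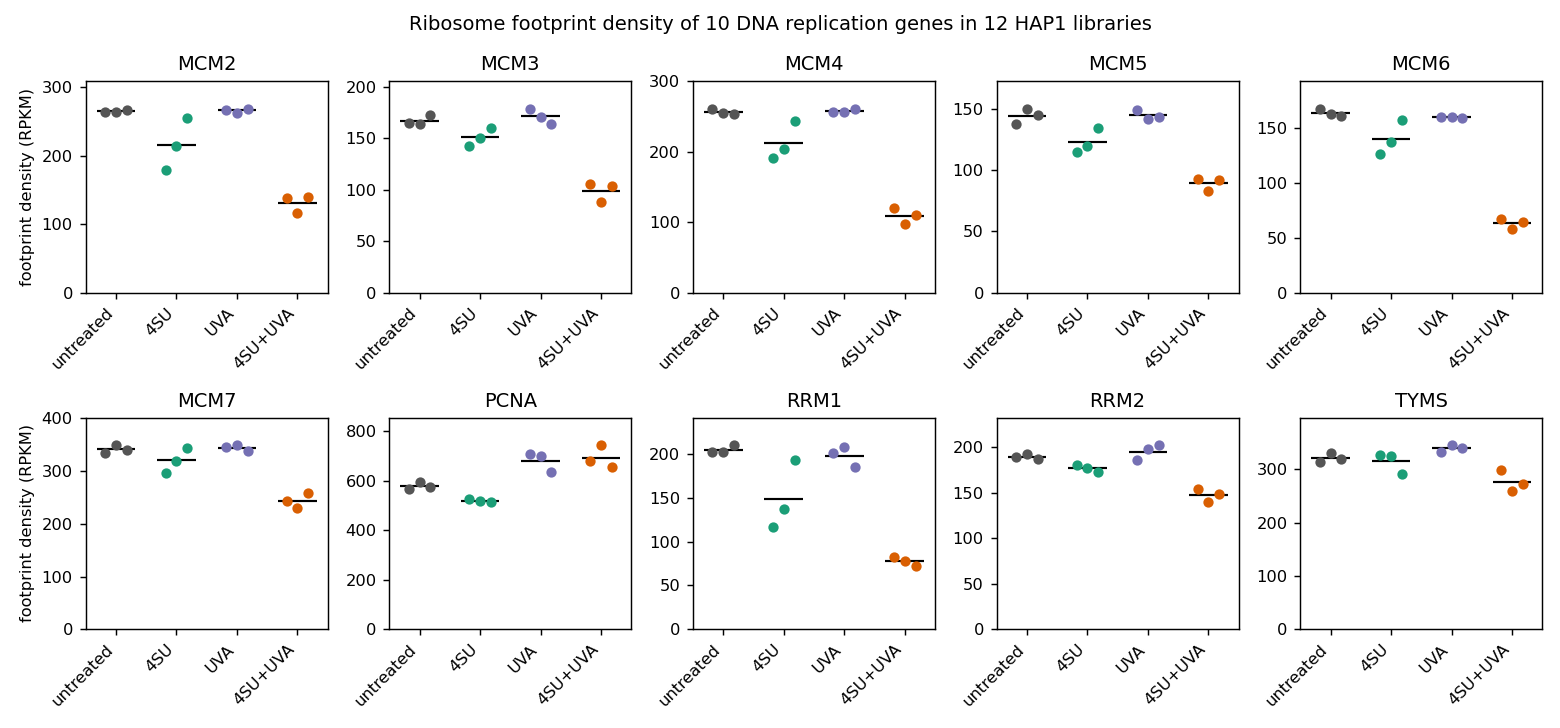
Footprint density in RPKM (vertical axes, each starting at 0) of the 10 genes in the 12 libraries, by group. Points are replicates 1 to 3 from left to right and lines are group means. With 4SU+UVA all points of 9 genes lie below those of untreated cells, while the points of PCNA lie above.

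The central comparison sets 4SU+UVA against untreated cells. It holds the effects of 4SU, of light and of their combination together, so it does not isolate crosslinking. Of the 10 genes 9 fell and PCNA rose (limma, adjusted p under 0.05). Over all genes tested 59.0% were called, 18.4% lower and 40.6% higher. Among the 995 genes with a mean of at least 100 RPKM, to which all 10 belong, 31.0% were called lower and 43.8% higher. The 4674 higher and 2122 lower calls over all genes became 3107 and 2888 with each library centred on its median, and 3011 and 2910 under quantile normalisation. The median change of the 10 genes was -0.72 on the log2 scale, beside 0.23 for all genes and 0.10 for the 995 abundant ones. Groups did not overlap at 9 genes that were lower and 1 that was higher, where 20.2% and 43.6% of all genes did not overlap in these directions.

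All 6 helicase genes fell, with a median log2 change of -0.89. MCM6 (ENSG00000076003.5, chromosome 2, 135839626 to 135876443, GRCh38.p14) held 167, 163 and 160 RPKM in the untreated libraries and 66.7, 57.9 and 64.2 RPKM with 4SU+UVA. The groups lay far apart, and the 4SU+UVA libraries kept 38.5% of the untreated mean. The change was -1.37 (SE 0.08, limma adjusted p = 6.2e-09), and 0.86% of all genes tested had a lower one. MCM4 (ENSG00000104738.18, chromosome 8, 47960941 to 47978160) held 260, 254 and 254 RPKM in untreated libraries and 119, 96.8 and 110 RPKM with 4SU+UVA. MCM4 forms the catalytic core of the helicase together with MCM6 and MCM7, and its density was 42.4% of the untreated mean. Its log2 change was -1.24 (SE 0.09, limma adjusted p = 4.9e-08). MCM2 (ENSG00000073111.14, chromosome 3, 127598411 to 127622436), which also binds histones H3 and H4 at the fork, went from 264, 264 and 267 RPKM to 138, 116 and 140 RPKM. Its groups did not overlap, and the log2 change was -1.02 (SE 0.10, limma adjusted p = 1.2e-06).

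The other helicase subunits fell by less. MCM3 (ENSG00000112118.20, chromosome 6, 52264015 to 52284742) fell from a range of 164 to 173 RPKM to 88.3 to 106 RPKM, a log2 change of -0.75 (SE 0.07). MCM5 (ENSG00000100297.16, chromosome 22, 35400140 to 35455031), which forms with MCM2 the gate through which DNA enters the ring, fell from 138 to 150.5 RPKM to 83.3 to 92.9 RPKM, a change of -0.69 (SE 0.07). MCM7 (ENSG00000166508.18, chromosome 7, 100092728 to 100101397) held 335, 349 and 341 RPKM in untreated libraries and 244, 229 and 258 RPKM with 4SU+UVA. At 71.4% of the untreated mean it kept the most of the 6, with a log2 change of -0.49 (SE 0.06, limma adjusted p = 1.1e-05).

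PCNA (ENSG00000132646.11, chromosome 20, 5114953 to 5126622) held 566, 595 and 574 RPKM in untreated libraries and 678, 744 and 655 RPKM with 4SU+UVA. Every 4SU+UVA library lay above every untreated one. The log2 change was 0.26 (SE 0.06, limma adjusted p = 0.0013), close to that of the median gene, and 51.9% of genes had a lower one. The call therefore rests on the scaling: it was 0.09 (limma adjusted p = 0.22) with each library centred on its median and 0.11 (adjusted p = 0.11) under quantile normalisation. On either scale PCNA was the only member of the 10 that was not called lower.

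RRM1 (ENSG00000167325.15, chromosome 11, 4094685 to 4138932) had a change close to that of MCM6, the difference between them being less than the SE of either. It held 203, 202 and 210 RPKM in untreated libraries and 82.1, 77.9 and 71.8 RPKM with 4SU+UVA. Its density kept 37.7% of the untreated mean, with a log2 change of -1.40 (SE 0.13, limma adjusted p = 6.3e-07). Its partner RRM2 (ENSG00000171848.16, chromosome 2, 10122568 to 10211010), the subunit that is destroyed at the end of each cell cycle, went from 189, 193 and 187 RPKM to 154, 140 and 149 RPKM. It kept 77.8%, with a log2 change of -0.36 (SE 0.06, limma adjusted p = 7.1e-05). TYMS (ENSG00000176890.16, chromosome 18, 657653 to 673578) held 314, 332 and 320 RPKM in untreated libraries and 298, 260 and 273 RPKM with 4SU+UVA. It fell the least of the 9, to 86.0% of the untreated mean, a log2 change of -0.22 (SE 0.06, limma adjusted p = 0.0070).

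RRM2, PCNA and TYMS have pseudogenes in RefSeq (3, 4 and 2 of them named after the gene), and TYMS shares 10593 bases with ENOSF1 and 639 with TYMSOS. RRM2 shares 2800 bases with the noncoding LOC105373424, MCM7 shares 604 with AP4M1, and PCNA shares 384 with PCNA-AS1. How reads that fit more than 1 place or strand were counted is not given in the sources used here, so small differences of these genes are uncertain.

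**Figure D2:**
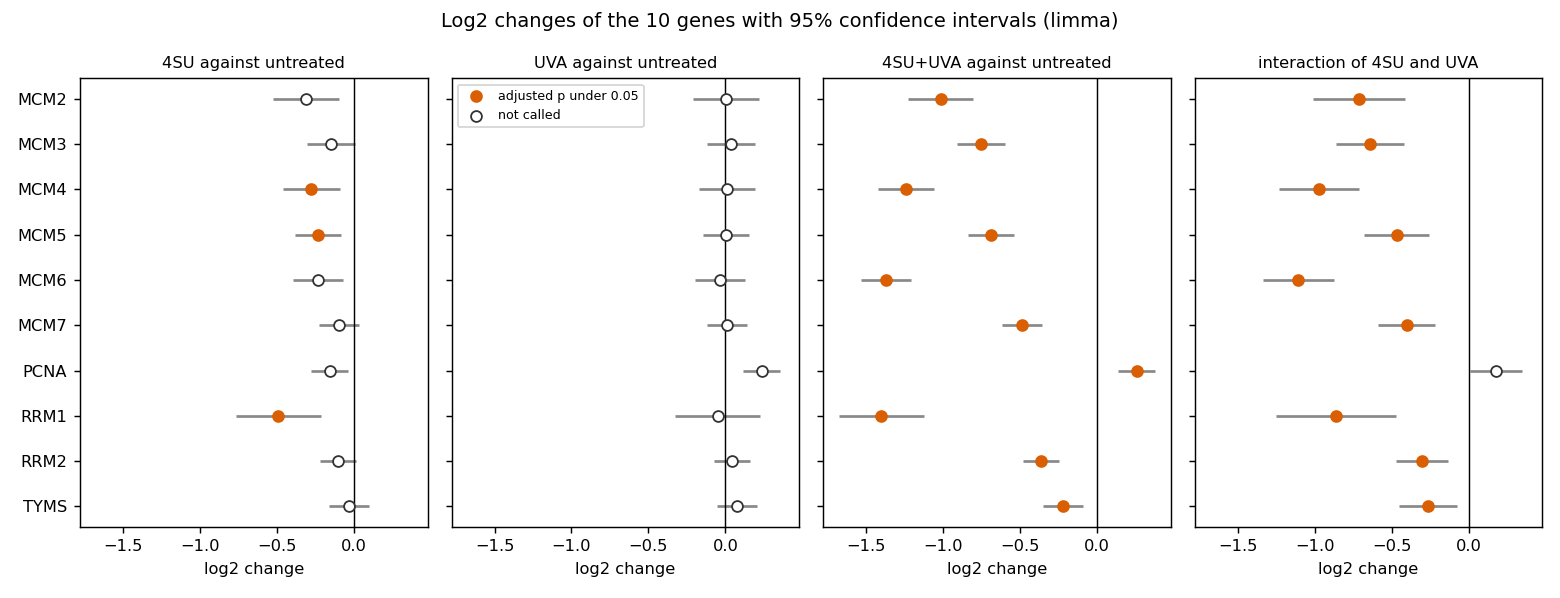
Log2 change (horizontal axis) of each gene in 3 comparisons with untreated cells and in the interaction, with bars for the 95% confidence interval of the limma fit over 12 libraries. Filled points passed at an adjusted p under 0.05: 3 genes with 4SU, none with UVA, all 10 with 4SU+UVA and 9 in the interaction.

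4SU alone asks what the nucleoside does without light. Of the 10, 3 genes passed the test as lower than in untreated cells, RRM1 (log2 -0.49, SE 0.13, limma adjusted p = 0.021), MCM5 (-0.23, SE 0.07, adjusted p = 0.038) and MCM4 (-0.28, SE 0.09, adjusted p = 0.044), where 3.12% of all genes were called lower and 12.4% of the 995 abundant ones. The other 7 did not pass, from MCM2 at -0.31 (limma adjusted p = 0.051) to TYMS at -0.03 (adjusted p = 0.77). All 10 fitted changes lay below 0, with a median of -0.19, beside 0.09 for all genes. At 8 of the 10, all but MCM7 and TYMS, the highest 4SU library was under the lowest untreated one, where 10.1% of all genes did so.

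The 4SU libraries differed widely among themselves. RRM1 held 117, 137 and 193 RPKM in replicates 1, 2 and 3, or 56.9%, 67.0% and 94.5% of the untreated mean. MCM2 held 179, 214 and 254 RPKM, and MCM4 191, 204 and 244 RPKM. For each of the 6 helicase genes and RRM1, replicate 1 was the lowest and replicate 3 the highest of the 4SU libraries, and replicate 3 stood closest to untreated cells. PCNA, RRM2 and TYMS had the opposite arrangement, with replicate 1 highest and replicate 3 lowest: PCNA held 527, 517 and 514 RPKM, RRM2 180, 177 and 173 RPKM and TYMS 328, 326 and 292 RPKM. For PCNA and RRM2 this order is uncertain, since the SD with 4SU was only 1.35% and 2.07% of the mean. Counting error over the 12 libraries was 1.44% to 2.36% for PCNA and 1.58% to 3.2% for RRM2. For TYMS it was 2.01% to 3.91%, so which of replicates 1 and 2, at 328 and 326 RPKM, was the highest is uncertain too. The SD of the 10 genes was 1.35% to 26.7% of the mean with 4SU, and 0.718% to 4.35% in untreated cells. The number of the 10 that were called lower moved with single libraries. It was 0 without untreated replicate 2, untreated replicate 3, 4SU replicate 1 or 4SU replicate 2, 5 without 4SU replicate 3, 1 without UVA replicate 2 and 6 without 4SU+UVA replicate 2. Libraries of the UVA and 4SU+UVA groups are not in this comparison. They reach its calls only through the spread shared by all groups and the set of genes tested. Of the called genes, MCM4 kept its call only without 4SU replicate 3, 4SU+UVA replicate 1 or 4SU+UVA replicate 2. The count also moved with the scaling, to 9 with each library centred on its median and 2 under quantile normalisation. Over all genes the 4SU calls were 1295 higher and 359 lower, against 640 and 1080 with median centring and 678 and 497 under quantile normalisation.

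UVA alone left the levels of most of these genes within a few percent of untreated cells. None of the 10 passed the test with UVA (limma adjusted p from 0.099 for PCNA to 0.99 for MCM2), where 0.652% of all genes were called in either direction, 32 higher and 43 lower, or 19 and 48 with median centring. At an unadjusted p under 0.05 in limma the count was 1, and limma voom on recovered reads called 1, PCNA in each case. The helicase genes changed by -0.04 (MCM6) to 0.03 (MCM3) on the log2 scale. Their 95% intervals reached from -0.21 to 0.22 at the widest, for MCM2, so changes within such limits are not excluded by this fit. RRM1 lay at -0.05 (interval -0.33 to 0.22), RRM2 at 0.04 (interval -0.08 to 0.16) and TYMS at 0.08 (interval -0.05 to 0.21). The spread behind these intervals is shared by the 4 groups, so libraries outside this comparison enter it. The SD of MCM2 was 0.718% of the mean in untreated cells and 1.29% with UVA, but 17.5% with 4SU and 9.9% with 4SU+UVA. For RRM1 these were 2.09%, 5.85%, 26.7% and 6.67%.

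PCNA held 708, 699 and 638 RPKM with UVA, all above the highest untreated library at 595. The difference was 0.24 (interval 0.11 to 0.36, limma adjusted p = 0.099), with 87.0% of genes lower. It passed without 4SU+UVA replicate 2 (limma adjusted p = 0.040) and with voom on the recovered reads (adjusted p = 0.027), and its adjusted p otherwise stayed above 0.05 in the settings tried. PCNA and TYMS were the genes whose UVA libraries all lay above the untreated ones, where 12.8% of all genes did so, and MCM6 the gene whose libraries all lay below, where 3.93% did.

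The effect of light on cells that carry 4SU was measured as 4SU+UVA against 4SU. In all, 9 genes fell and PCNA rose (limma), where 19.0% of all genes were called lower and 25.0% higher. MCM6 again had the lowest helicase value, at -1.14 (SE 0.08, limma adjusted p = 6.9e-08), followed by MCM4 at -0.96 (SE 0.09), MCM2 at -0.71 (SE 0.10), MCM3 at -0.61 (SE 0.07), MCM5 at -0.46 (SE 0.07) and MCM7 at -0.39 (SE 0.06). RRM1 fell by 0.91 (SE 0.13), RRM2 by 0.26 (SE 0.06) and TYMS by 0.19 (SE 0.06, limma adjusted p = 0.023) on the log2 scale. TYMS libraries of both groups overlapped, since 4SU replicate 3 at 292 RPKM lay below 4SU+UVA replicate 1 at 298 RPKM. Its call was lost without 4SU replicate 1, 4SU replicate 2, 4SU+UVA replicate 2 or 4SU+UVA replicate 3 (limma adjusted p = 0.079, 0.086, 0.090 and 0.062), and without a variance trend or with only these groups fitted (adjusted p = 0.0756 and 0.0822). The rise of PCNA from 4SU to 4SU+UVA was 0.41 (SE 0.06, limma adjusted p = 4.5e-05), and it passed under median centring and quantile normalisation too.

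The effect of 4SU on irradiated cells was measured as 4SU+UVA against UVA. In this comparison 9 genes fell (limma), where 19.8% of all genes were called lower, with 3989 higher and 2278 lower calls that became 2900 and 2820 under quantile normalisation. Their log2 changes ran from -1.35 (RRM1, SE 0.13) and -1.34 (MCM6, SE 0.08) to -0.30 (TYMS, SE 0.06, limma adjusted p = 0.0010), and none of these 9 overlapped between the groups, where 21.5% of all genes were lower without overlap. PCNA did not pass, at 0.02 (interval -0.10 to 0.14, limma adjusted p = 0.76). Under quantile normalisation it lay at -0.17 (limma adjusted p = 0.023), and with median centring at -0.07 (adjusted p = 0.34). This comparison and those above share libraries, so their values are set side by side and are not independent.

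Whether light acted differently with and without 4SU was tested as an interaction, the UVA change with 4SU minus the UVA change without it. The interaction lay below 0 at 9 genes (limma), where 14.1% of all genes were called lower. The helicase genes ran from -1.11 for MCM6 (SE 0.11, limma adjusted p = 6.1e-06) to -0.40 for MCM7 (SE 0.09, adjusted p = 0.0032). RRM1 lay at -0.86 (SE 0.18, limma adjusted p = 0.0032) and RRM2 at -0.30 (SE 0.08, adjusted p = 0.011). TYMS lay at -0.26 (SE 0.09, limma adjusted p = 0.039), a call kept without 4SU replicate 3 or 4SU+UVA replicate 1 and lost on removal of any other library (limma adjusted p = 0.051 to 0.091) and under median centring (adjusted p = 0.0776), with no filter on low values (0.0556) or without a variance trend (0.111). PCNA did not pass, at 0.18 (interval 0.01 to 0.35, limma adjusted p = 0.12).

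The subunits of the helicase are needed in equal numbers, so their densities were also compared within each library. The library total cancels in shares and ratios, but not in the summed density of the 6 genes. That sum was 1338 ± 7.72 RPKM in untreated cells, 1163 ± 123 with 4SU, 1344 ± 10.8 with UVA and 735 ± 54.7 with 4SU+UVA (SD, n = 3 each). MCM6 made up 12.2 ± 0.330% of this sum in untreated cells and 8.57 ± 0.171% with 4SU+UVA. MCM4 went from 19.2 ± 0.381% down to 14.8 ± 0.696%, and MCM7 from 25.5 ± 0.378% up to 33.2 ± 1.24%. MCM2 went from 19.8 ± 0.160% to 17.8 ± 0.467%, MCM3 from 12.5 ± 0.375% to 13.5 ± 0.347%, and MCM5 from 10.8 ± 0.409% to 12.2 ± 0.202%. None of these 6 shares overlapped between the groups. The shares are parts of 1 sum, so they are not 6 separate results: a larger fall of some subunits raises the shares of others. MCM3 and MCM5 rose in share although their densities fell to 59.3% and 61.8% of the untreated mean. The ratio of the most to the least densely covered subunit was 2.37 ± 0.0581 in untreated cells, 2.60 ± 0.0544 with 4SU, 2.37 ± 0.0737 with UVA and 3.88 ± 0.197 with 4SU+UVA (SD, n = 3 each). These shares and ratios are descriptions and were not tested.

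RRM2 over RRM1, the density ratio of the ribonucleotide reductase subunits, was 0.926 ± 0.0322 in untreated cells and 0.989 ± 0.0892 with UVA (SD, n = 3 each). It was 1.91 ± 0.141 with 4SU+UVA, above the ratio of every other library. With 4SU it was 1.54, 1.29 and 0.893 in replicates 1, 2 and 3, the first and second above and the third among the untreated ratios. TYMS over RRM1 moved likewise, from 1.57 ± 0.0613 in untreated cells to 3.59 ± 0.236 with 4SU+UVA. PCNA over MCM6 was 3.54 ± 0.139 in untreated cells, 3.75 ± 0.458 with 4SU, 4.28 ± 0.228 with UVA and 11.1 ± 1.53 with 4SU+UVA. MCM6 was the helicase gene that fell most. For MCM7, which fell least, the ratio of PCNA to it went from 1.69 ± 0.0106 in untreated cells to 2.85 ± 0.358 with 4SU+UVA. Both ratios were highest where both agents were given.

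**Figure D3:**
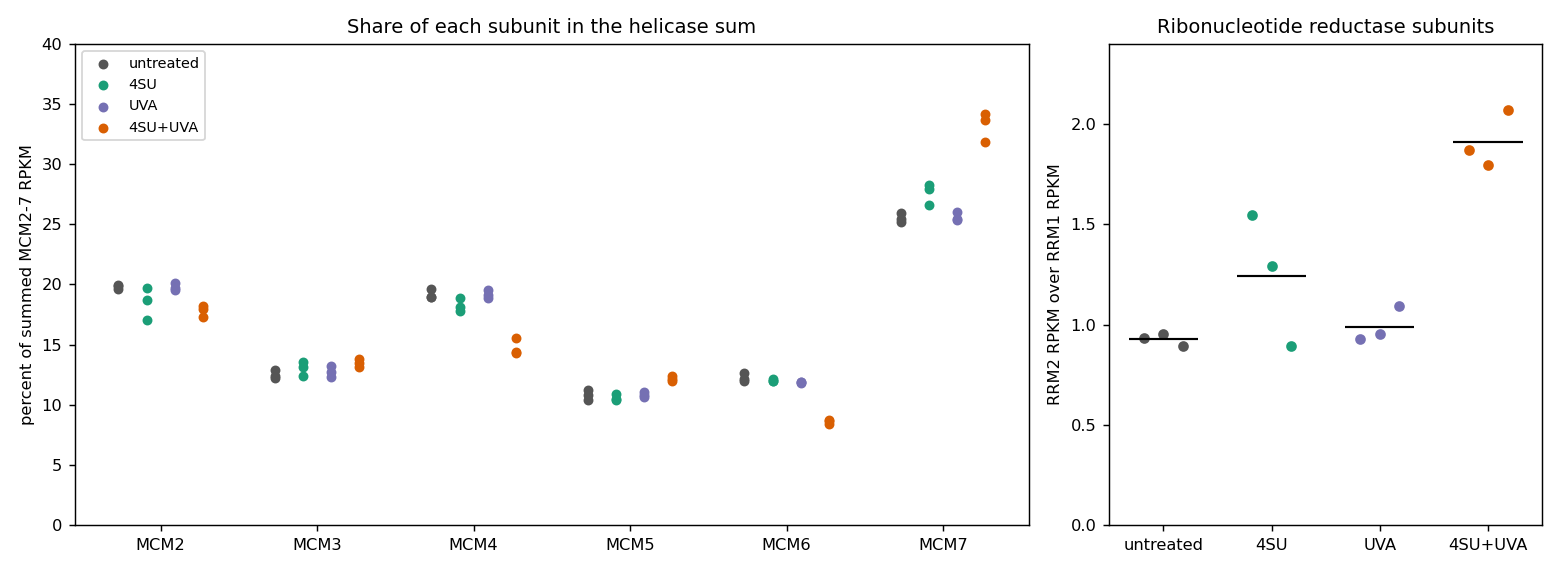
Left, the percentage of the summed RPKM of MCM2 to MCM7 taken by each subunit in each of the 12 libraries, coloured by group. Right, RRM2 RPKM divided by RRM1 RPKM per library, with lines for group means: the 4SU+UVA libraries lie at 1.80 to 2.07, above all others.

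Transcript length moved with these changes. The transcripts used for the RPKM values are 1276 nt (PCNA), 1327 nt (TYMS), 1968 nt (MCM7), 3142 nt (RRM1), 3208 nt (MCM3), 3434 nt (MCM2), 3458 nt (MCM5), 3673 nt (RRM2), 3753 nt (MCM6) and 4183 nt (MCM4). The 3 shortest had changes with 4SU+UVA of 0.26, -0.22 and -0.49, and 6 of the other 7 had changes of -0.69 or lower. RRM2 was the exception, long at 3673 nt and lower by only 0.36. Across the 10 genes the change correlated with log2 length at Pearson r of -0.78 and Spearman rho of -0.56, and without PCNA at -0.64 and -0.40. Across the 995 abundant genes, whose median length was 1303 nt, Pearson r was -0.57, and across all 11510 genes, with a median of 2616.5 nt, it was -0.24. A negative r was not particular to 4SU+UVA. Across the 10 genes Pearson r was -0.513 with 4SU alone and -0.738 with UVA alone, and without PCNA -0.545 and -0.54. Genes of a library share its depth and are not independent replicates, so these values are descriptions. The part of length in the changes of the 10 genes was not tested.

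**Figure D4:**
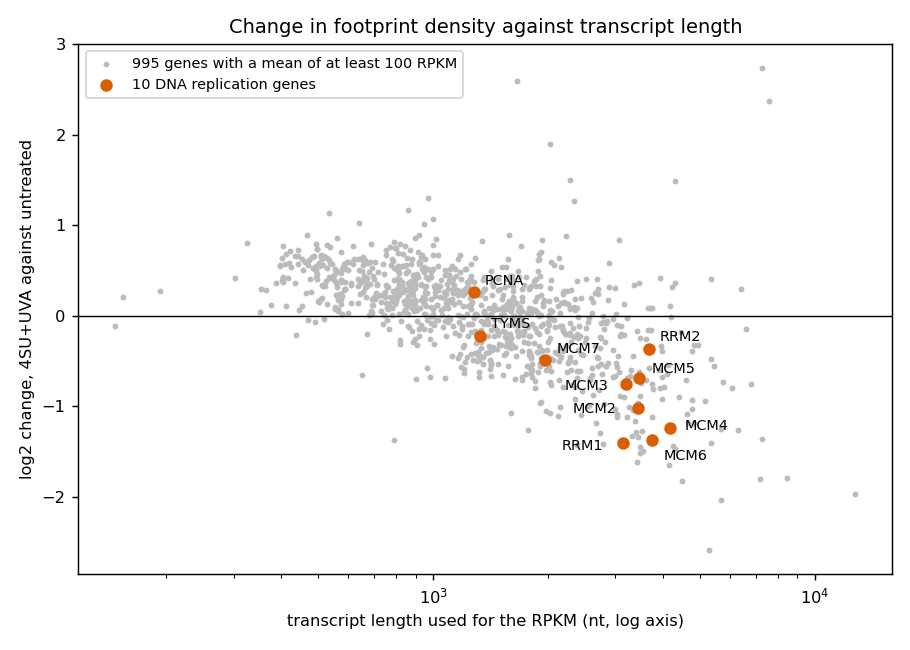
Log2 change with 4SU+UVA against untreated cells (vertical axis) by transcript length in nt (horizontal log axis), for the 995 genes with a mean of at least 100 RPKM in grey and the 10 DNA replication genes in orange. The 3 shortest, PCNA, TYMS and MCM7, lie at 0.26, -0.22 and -0.49, and the long RRM2 lies at -0.36.

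The pattern over the 12 libraries was compared between each gene and the mean of the others. On the log2 scale all but PCNA correlated with that mean at Pearson r of 0.82 (TYMS) to 0.99 (MCM4 and MCM5), while PCNA lay at -0.39. Of the 8121 other genes with a mean of at least 5 RPKM, ENSG00000167986.15 and ENSG00000075188.9 had the patterns most like the mean of the 10 (r of 0.997 for each over 12 libraries). The first held 234 ± 6.18 RPKM in untreated cells, 177 ± 29.4 with 4SU, 237 ± 7.25 with UVA and 86.1 ± 4.91 with 4SU+UVA (SD, n = 3 each). The libraries share the same treatments, so a high correlation follows for any gene that moves with them.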

How the data were processed

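Footprints of 12 HAP1 libraries were analysed, grouped by their sample titles. The authors deposited 1 table of RPKM values with Ensembl identifiers. The submitters' processing notes name STAR 2.7.10a and the build hg38. No source used here names the read counter, gene annotation or filters. The labels' protocols mention no molecular identifiers, so the counting errors cover counting only.

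Library totals and transcript lengths were recovered as the whole numbers that make every RPKM value a whole read count within 0.001 reads. All 15937 genes with a read gave a length. Of the lengths 34.2% were multiples of 3. Models were fitted in R 4.3.3 by limma 3.58.1 (lmFit, then eBayes with its trend option) to log2(RPKM + 0.5), so a fold change of a low gene is understated. A gene was tested if 3 or more libraries reached 1 RPKM. A model of 4 group means with 8 residual degrees of freedom gave 6 contrasts, two-sided, with Benjamini-Hochberg adjustment over the 11510 genes and a threshold of 0.05. Both steps were tested on simulated data. Alternatives were another pseudocount, filter, scaling, variance model, set of libraries, a replicate block, and limma voom on the recovered reads.

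The class of genes of at least 100 RPKM, the ratios and the promoter search were chosen after the values were seen. The 10 genes are named throughout, and the 2 identifiers of most similar pattern had to have a mean of at least 5 RPKM. The members and lists were chosen with earlier results of these data known. The 8 lists of other replication genes and the cell type markers, including a check of the HAP1 label, were not analysed here, because the tables used pair symbols with none of the identifiers. Promoter windows and positions are those of RefSeq, GRCh38.p14.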

Additional observations from a re-analysis of the deposited data

Results flagged for a closer look

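The UVA change with 4SU differed from the UVA change without it at 9 of the 10 genes (interaction in limma over 12 libraries, adjusted p under 0.05). The differences on the log2 scale were -1.11 for MCM6, -0.97 for MCM4, -0.86 for RRM1, -0.71 for MCM2, -0.64 for MCM3, -0.47 for MCM5, -0.40 for MCM7, -0.30 for RRM2 and -0.26 for TYMS. In each case the sign was that of a lower density where both agents were given. The TYMS call was lost on removal of any library other than 4SU replicate 3 or 4SU+UVA replicate 1 (limma adjusted p = 0.0508 to 0.0909), under median centring (0.0776), with no filter on low values (0.0556) and without a variance trend (0.111). Among all genes tested 14.1% were called in this direction.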

How the results depend on the processing

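With 4SU+UVA against untreated cells, the 9 falls kept their direction and stayed past the threshold in all 22 alternatives tried, and the rise of PCNA did so in all but the 2 other scalings given above. The count of genes called lower with 4SU alone, 3 with the settings used, was 0 with no filter on low values or without a variance trend, 1 with only the groups compared, 5 when 3 libraries had to reach 5 RPKM, 6 with voom and 9 with median centring, and 0 to 6 when a library was left out. For UVA alone the count was 1 with voom and 0 to 1 when a library was left out. The signs that turned belong to changes that were not called with the settings used. Under median centring the UVA change was -0.0759 for MCM2, -0.0465 for MCM3, -0.0724 for MCM4, -0.0742 for MCM5, -0.0703 for MCM7, -0.0398 for RRM2 and -0.00447 for TYMS, and under quantile normalisation -0.00936 for MCM2, -0.0197 for MCM5 and -0.0235 for MCM7. Leaving out a library gave UVA changes of -0.00185 to 0.0160 for MCM2, -0.000101 to 0.0209 for MCM4, -0.0260 to 0.0365 for MCM5 and -0.00236 to 0.0264 for MCM7. TYMS with 4SU alone was 0.0101 under quantile normalisation and -0.0610 to 0.0215 when a library was left out. PCNA with 4SU+UVA against UVA was -0.0675 under median centring, -0.167 under quantile normalisation (limma adjusted p = 0.0232) and -0.0306 to 0.0609 when a library was left out, and its interaction was -0.0270 under quantile normalisation. The cause of these shifts was not tested. No pairing of libraries by replicate number was seen (r of deviations from the group means -0.05 to 0.07, above 0.1 in 0 of 18 pairs). These values cannot show whether libraries of the same number were prepared together. With the number as a replicate block 4 genes in place of 3 were called lower with 4SU, MCM2 being added (-0.31, limma adjusted p = 0.043), and the counts of the other comparisons did not move. At least 413 reads lie behind each value. That lowest count is of MCM6, with a counting error of 4.92%, beside an SD of 7.17% of its 4SU+UVA mean. The shallowest library, 4SU+UVA replicate 2 with 1899854 reads, was the lowest of its group at 8 of the genes and the highest at PCNA. The part of depth in the levels of that library was not tested. Without it 6 genes in place of 3 were called lower with 4SU alone, MCM2, MCM6 and PCNA being added. The library is not in that comparison, and the fitted changes stayed the same (MCM2 -0.31, MCM6 -0.23, PCNA -0.15). Only the spread shared by the 4 groups and the set of genes tested moved.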
